A study of Drosophila melanogaster with 2 samples.

Results

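The peaks described here are 216 regions that repeated between the lists compared by the authors and yet do not stand in the shorter list those authors deposited. They were selected on measured values. Each is a line of the ranked peak list of both replicates together whose −log10 global irreproducible discovery rate (IDR) is 2 or more, that is, a rate of 0.01 or less, and whose position, signal and summit match no line of the thresholded list. The global IDR is the expected share of irreproducible peaks among those ranked at least as high. The compared lists need not be those of the replicates. On Un_CP007100v1 the matched signals were 458 and 502, but the signals in replicates 1 and 2 were 686 and 255. Passing the limit therefore does not by itself mean that both replicates agreed. The ranked list holds 134910 peaks, of which 5140 (3.81%) pass the limit. The thresholded list holds 4924 of these, so the left-out peaks are 4.20% of the peaks past the limit. Since the rule used the IDR and the list itself, these counts and every signal below are descriptions and carry no test.

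The study mapped by ChIP-seq the sites of an NFAT-eGFP fusion protein in whole embryos of Drosophila melanogaster aged 0 to 24 h. The flies carry an insertion that targets NFAT, the protein was precipitated with an antibody to GFP, and the sheared chromatin had a stated size range of 200 to 800. The antibody entry in the labels of both samples reads NFAT. The 2 samples are biological replicates of 1 group and share the transgenic strain, so the peaks pool all cells and stages of the embryo. The files used give no reads or totals, so the depth behind a peak is unknown, and the list of thresholded peaks serves as the point of comparison.

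NFAT proteins bind DNA through a domain related to that of the Rel and NF-κB factors, and their core site is GGAAA. In vertebrates most of them enter the nucleus after calcium activates the phosphatase calcineurin. Drosophila has a single NFAT gene, whose product is of the kind that in vertebrates answers to salt stress. A ChIP-seq peak records where sheared fragments piled up after precipitation.

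The strongest left-out peaks on the arms lay in introns and at promoters of genes as well as in annotated elements. Shown are 9 of their summits, each with 50 bp on either side, so that both kinds can be read. All are given on the plus strand of dm6, from the RefSeq Release 6 genome. The first is from an intron of ush at chr2L:481038-481138, the second from an intron of Lk6 at chr3R:11760990-11761090, the third from the promoter of larp at chr3R:28326548-28326648 and the fourth from an intron of trx at chr3R:14283841-14283941. The next are from an intron of tara at chr3R:16236965-16237065 and the promoters of isoQC at chr3L:20474824-20474924 and CG6966 at chr3R:15095843-15095943. The eighth is from the annotated retrotransposon R1 at chr3L:25134002-25134102. These are the 8 strongest members on the arms, and R2 at chrX:23222252-23222352 was added as the strongest whose 50 bp at the summit has further copies. Capitals mark every match to a motif searched, on either strand: TATAAA at ush, ACAGTG at Lk6, the NFAT core GGAAA at trx, and GAGAG and then ACACTG overlapping ACAGTG at tara. The other windows hold none.
ush: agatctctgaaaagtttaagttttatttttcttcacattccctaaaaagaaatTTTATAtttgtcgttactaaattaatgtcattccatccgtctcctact
Lk6: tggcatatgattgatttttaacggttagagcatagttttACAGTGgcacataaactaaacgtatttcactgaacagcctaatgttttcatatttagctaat
larp: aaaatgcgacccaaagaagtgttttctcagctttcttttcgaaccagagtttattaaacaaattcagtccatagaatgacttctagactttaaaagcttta
trx: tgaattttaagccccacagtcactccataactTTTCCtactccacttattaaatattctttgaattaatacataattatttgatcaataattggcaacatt
tara: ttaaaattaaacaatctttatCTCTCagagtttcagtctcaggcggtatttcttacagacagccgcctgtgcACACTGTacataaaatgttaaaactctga
isoQC: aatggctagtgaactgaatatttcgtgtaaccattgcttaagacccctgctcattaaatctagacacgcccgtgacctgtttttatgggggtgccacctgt
CG6966: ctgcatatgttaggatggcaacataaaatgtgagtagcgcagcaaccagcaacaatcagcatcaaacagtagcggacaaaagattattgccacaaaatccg
R1: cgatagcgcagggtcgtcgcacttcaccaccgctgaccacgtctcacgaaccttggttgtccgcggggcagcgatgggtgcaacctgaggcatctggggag
R2: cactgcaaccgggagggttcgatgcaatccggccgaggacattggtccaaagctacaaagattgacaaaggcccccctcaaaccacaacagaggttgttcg

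The left-out peaks were not the weak end of the list. Their signal, the caller's own value per peak of unstated scale, ran from 3.15 to 1562 with a median of 93.2, and the thresholded peaks ran from 2.21 to 2300 with a median of 91.7. The middle of the distribution, from the lower to the upper quartile, was 71.5 to 139.8 for the left-out peaks and 68.5 to 141 for the thresholded ones. When the 5140 peaks past the limit were cut into signal quartiles, 3.58% of the lowest, 4.75% and 4.28% of the middle ones and 4.20% of the highest were left out. Of the 25 strongest peaks past the limit 2 were left out, and of the 100 strongest 5. The −log10 global IDR reached its ceiling of 5 at 21 left-out peaks. Members were selected on this value, so that count describes them only and is no comparison with the thresholded peaks.

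At the limit itself, the members just inside lay near corto (−log10 global IDR 2.01, signal 53.9), at 65409 bp from RpL5 (2.02, signal 56.4) and at Amph (2.03, signal 67.3). The ranked peaks just outside lay near Fum4 (1.9999, signal 57.2), IM33 (1.9996, signal 56.1) and CG42753 (1.9993, signal 56.4). Most members, 176 of 216 (81.5%), had the list's common width of 284 bp, against 84.4% of the thresholded peaks. The 39 narrower members were stronger at the median, with a signal of 238 against 84.5 at the common width. Not all of them were strong: that on Un_DS484756v1, which starts at base 1 of its contig, had 71.6. Only 5 members had a signal below both of the matched signals in the compared lists (3.15 to 44.2), and all 5 overlapped another member.

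The left-out peaks fell unevenly over the genome. Chromosome arm 3R carried 105 of the 177 that lie on arms, or 59.3% (95% Wilson interval 52.0 to 66.3), and 23.5% of the thresholded peaks on arms. Arm 2L carried 46. On 3R 8.35% of the peaks past the limit were left out and on 2L 4.88%, while 2R, 3L and X lost 0.911%, 0.763% and 0.603%. Wilson intervals cover counting error only, and neighbouring peaks are not independent. The small chromosome 4 lost 2 of 3 peaks past the limit and the Y chromosome 2 of 6.

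**Figure D1:**
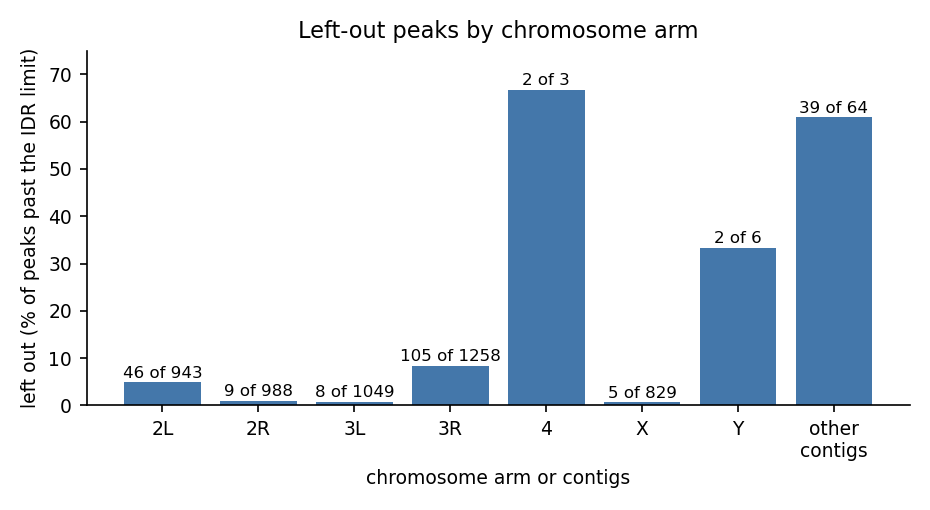
Share of the peaks past the IDR limit that were left out (%), by chromosome arm and for all other contigs together; the numbers above the bars give left-out peaks of peaks past the limit. The bars of 3R (105 of 1258) and 2L (46 of 943) stand above those of 2R, 3L and X, and the tallest rest on few peaks on chromosome 4 and on 39 of 64 peaks on the other contigs.

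Off the arms the left-out share was larger. Of 64 peaks past the limit there, 39 (60.9%) were left out, 27 on unplaced contigs and 12 on contigs assigned to Y without a position. The 39 members lay on 31 contigs and the 25 thresholded peaks on 23 other contigs, and no contig had both. Since the 64 peaks were spread over 54 contigs, most with a single peak, this separation had little room to fail. The strongest was Un_CP007100v1 from 6259 to 6398, with a signal of 921, 686 in replicate 1 and 255 in replicate 2. Un_CP007120v1 had 3 members, the strongest with a signal of 372, Un_DS483746v1 had 4 with a top of 104, Y_DS483677v1_random had 3 with a top of 94.5, and the member of Un_DS484007v1 reached 247. Gene content and copy number on these contigs were not analysed here.

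The left-out peaks also recurred when each replicate was taken alone. The authors' replicate 1 list left out 134 peaks past its limit (5.59%), replicate 2 left out 169 (4.05%), and the conservative list of both replicates left out 172 (4.20%). None of the peaks left out of any of these 4 pairs of lists overlapped a thresholded peak of any of them. A left-out peak of the conservative list overlapped 158 of the 216 members (73.1%). One of replicate 1 overlapped 124 members, one of replicate 2 overlapped 155, and 98 members (45.4%, Wilson interval 38.9 to 52.0) were left out in both replicates. Read the other way, 91.0% of the peaks left out in replicate 1 and 90.5% of those left out in replicate 2 overlapped a member. The larger list was made from the same replicates, so this overlap is no independent check. The 97 members left out in all 4 pairs had a median signal of 152, and the 17 left out of the larger pair alone a median of 66.4.

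Every member had a ranked peak in at least one replicate, 201 in replicate 1, 209 in replicate 2 and 194 in both. The replicate 1 signals over members ran from 8.88 to 686 with a median of 46.2, and the replicate 2 signals from 12.6 to 959 with a median of 58.0. Signals of separately made lists are not on a shared scale, so only the direction in one place against another is described. On arms outside annotated elements, replicate 2 gave the higher signal at 129 of 151 members (85.4%), close to 88.4% of thresholded peaks on arms. Off the arms replicate 2 was higher at 10 of 37 members (Wilson interval 15.4% to 43.0%) and at 4 of 21 thresholded peaks. Of the 6 members in annotated elements with a peak in both replicates, 2 were higher in replicate 2. The peak on Un_CP007100v1 ranked 3 in replicate 1 and 147 in replicate 2, while that at ush ranked 5 in both. Over the 194 members in both replicates Spearman's rho between their signals was 0.593, a description over peaks that share 2 libraries.

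**Figure D2:**
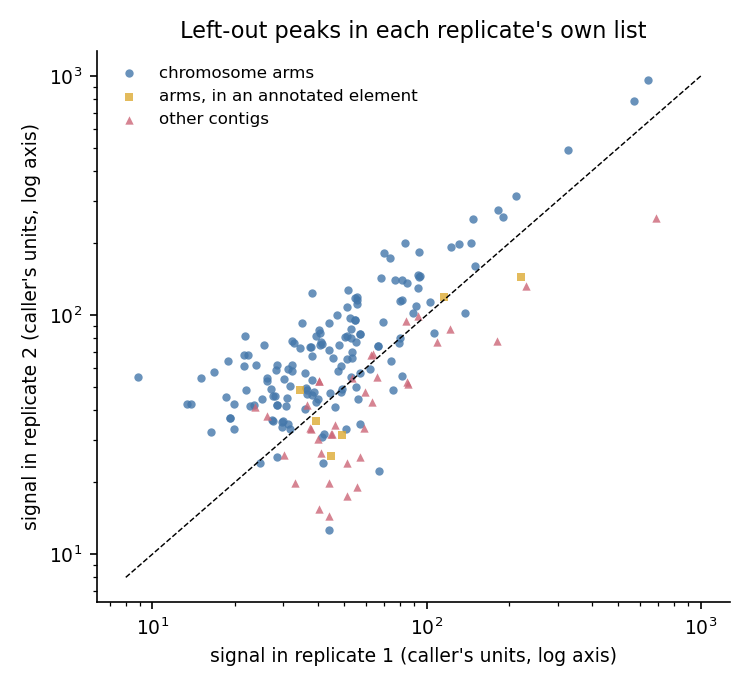
Signal of each left-out peak in the ranked list of replicate 1 (x axis) and of replicate 2 (y axis), in the caller's units on log axes, for the 194 with a peak in both; the dashed line marks equal values. Most members on arms lie above the line (129 of 151 outside annotated elements), while 27 of the 37 on other contigs lie below it.

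On the arms, promoters and introns held most left-out summits. A summit within 500 bp of the transcription start site (TSS) of a protein-coding gene, called a promoter here, was found for 88 of 177 members (49.7%, Wilson interval 42.4 to 57.0), for 56.2% of thresholded peaks and for 11.8% of the lower-ranked peaks that miss the limit. Introns held 49 members (27.7%, against 26.4% of thresholded peaks) and intergenic DNA 30 (16.9%, against 11.1%). Coding exons held a single member, at the mucin gene Muc30E, with a signal of 105. Coding exons held 23.2% of the lower-ranked peaks. The 5' UTR class held 6 members (3.39%, Wilson interval 1.56 to 7.20, against 0.612% of thresholded peaks), and 3 of the 6 lie in spen, which encodes a nuclear RNA-binding protein. The 3' UTR class held none. At promoters the median distance to the TSS was 60 bp for members and 70 bp for thresholded peaks, and 61 of the 88 members and 2035 of the 2753 thresholded peaks there lay upstream.

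**Figure D3:**
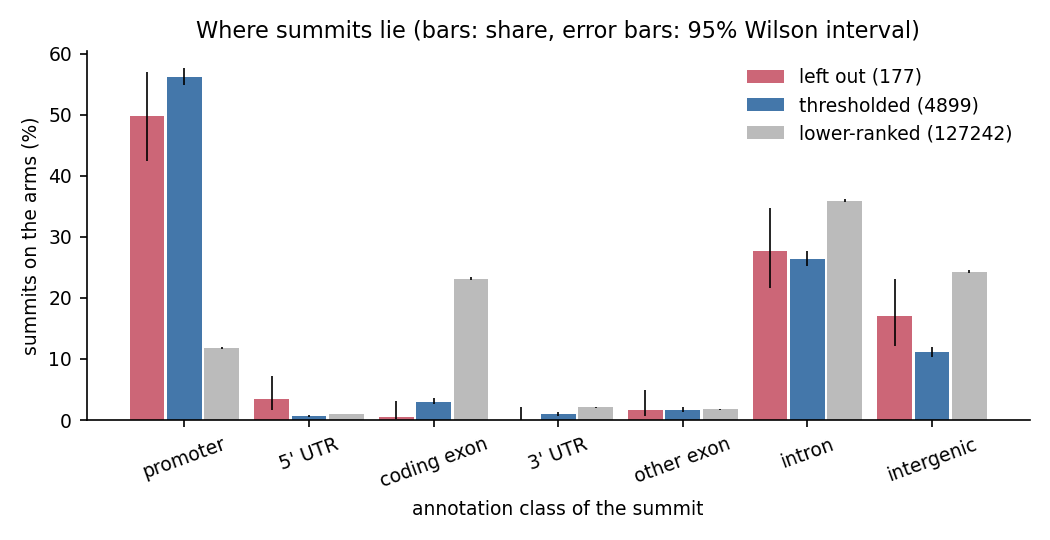
Share of summits on the chromosome arms (%) in each annotation class for left-out, thresholded and lower-ranked peaks, with 95% Wilson intervals as error bars. Promoters hold 49.7% of left-out and 56.2% of thresholded summits but 11.8% of the lower-ranked ones, and coding exons hold 0.565%, 3.02% and 23.2%.

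**Figure D4:**
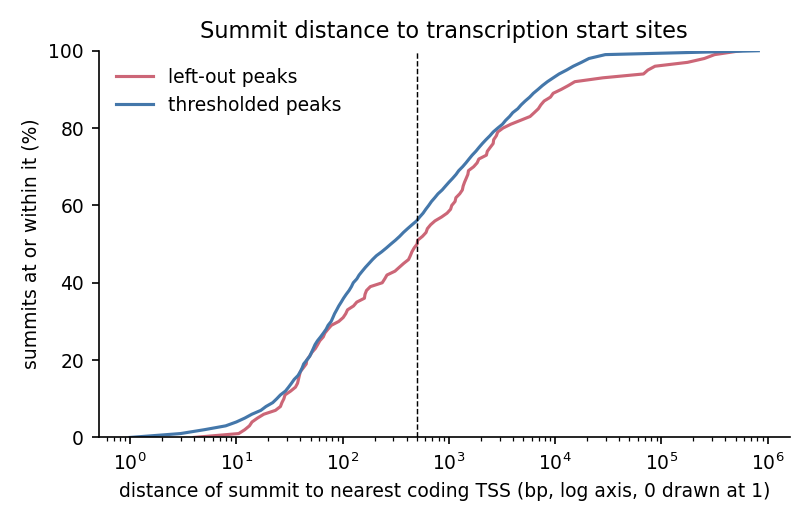
Cumulative share of summits (%) at or within a distance of the nearest protein-coding TSS (bp, log axis) for left-out and thresholded peaks on the arms; the dashed line marks 500 bp. The medians are 502 bp for left-out and 284 bp for thresholded summits, and 18.1% of left-out against 13.5% of thresholded summits lie beyond 5000 bp.

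The places of members on 3R and on the other arms are given apart, without a test of the difference. On 3R, 62 of 105 were at promoters (59.0%, against 56.7% of thresholded peaks on 3R), 35 in introns and 3 in intergenic DNA, and none lay in an annotated element. On the other arms 26 of 72 were at promoters (36.1%, against 56.0%) and 27 in intergenic DNA (37.5%), 8 of them in elements. Of those 27, 10 belong to a single run around the rhodopsin gene Rh5 on 2L.

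On the arms the 50 bp at most left-out summits had no other exact copy in the genome. Diverged copies were not counted, and 7 of the 173 such members lay in annotated transposable elements. The 50 bp at the summit had another exact copy at 4 of 177 members (2.26%, Wilson interval 0.882 to 5.67), against 0.163% of thresholded and 1.58% of lower-ranked summits. The 4 were the R2 element on X with 3 copies and a signal of 333, a site near the end of 2L with 105 copies and a signal of 123, an intron of kl-5 on Y with 3 copies and a signal of 66.7, and a site near the start of 2R with 11 copies and a signal of 62.7. The kl-5 gene encodes a dynein heavy chain of the sperm tail. An annotated transposable element held 8 member summits (4.52%), against 0.306% of thresholded and 1.11% of lower-ranked summits. More than 50 bp of the window that reaches 50 bp to either side of the summit were soft-masked as repeats at 11.3% of members and 3.63% of thresholded peaks, but the shares with no masked base were alike, 45.8% and 45.7%.

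The elements with a left-out peak are known from particular places of the fly genome. R1 and R2 insert into the ribosomal RNA genes, and HeT-A elements build the telomeres. R1A1 held 3 members with a top signal of 236, HeT-A held 2 at the end of chromosome 4 with a top of 79.3, and R1 and R2 held 1 each with signals of 360.2 and 333. The R1 peak had signals of 219.9 in replicate 1 and 143.7 in replicate 2, and the R2 peak 219 in replicate 1 and no ranked peak in replicate 2. One summit, with a signal of 79.3, lay in annotated copies of gypsy, accord2 and diver2 at the same time. No thresholded summit lay in any of these 7 families. The satellite unit AAGAG was repeated in the windows of 2 members and of no thresholded peak.

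The strongest gene peaks were intronic. The peak in an intron of ush, which encodes a partner of GATA factors, spanned chr2L:480923-481248, 1400 bp from the TSS of cbt, a zinc finger transcription factor gene. Its signal was 1562, 639 in replicate 1 and 959 in replicate 2, and it ranked 5 among all 5140 peaks past the limit. The peak in an intron of Lk6, the kinase of the cap-binding factor eIF4E, spanned chr3R:11760901-11761178 with a signal of 1332, 568 in replicate 1 and 788 in replicate 2, and ranked 9. Both were strong in each replicate, with the IDR at its ceiling. The peak in trx, which encodes a histone H3 lysine 4 methyltransferase, had a signal of 519, 212 in replicate 1 and 315 in replicate 2. The strongest peak in tara, a gene of the trithorax group, had a signal of 475, 183 in replicate 1 and 275 in replicate 2. A further intronic peak lay in Unc-115a, with a signal of 279, and 1 with a simple repeat over its summit in Ppr-Y on the Y chromosome, with a signal of 235.

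At promoters the strongest left-out peak was that of larp, which encodes an RNA-binding protein, with a signal of 811, 327 in replicate 1 and 490.3 in replicate 2, its summit 334 bp from the TSS. The promoter of isoQC, a glutaminyl cyclase gene, had a signal of 441, 189.9 in replicate 1 and 256 in replicate 2. CG6966 had 392, 147 in replicate 1 and 252 in replicate 2, and the kinase gene Nuak had 347, 145 in replicate 1 and 199.7 in replicate 2. Replicate 2 gave the higher signal at these 4, as at 71 of the 79 promoter members with a peak in both replicates.

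The next promoters by signal belong to genes of several kinds. They include crp, a basic helix-loop-helix factor gene, with 316, and Sin3A, a corepressor scaffold gene on 2R, with 310.5. Vha55 (a subunit of the vacuolar proton pump) had 250.2, TfIIA-S (a basal transcription factor subunit) had 246, and CG4297 had 242, a summit that is also within 1000 bp of a TSS of MED15, a Mediator subunit gene. Then came cbt with 238, RpL13A with 235, the insulin receptor gene InR with 218, the deacetylase gene Sirt6 with 214, the histone gene His2B:CG33868 with 198 and the glycolytic gene Pgk with 196.7.

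Left-out peaks were the only peaks past the limit near 93 protein-coding genes. Of 13968 such genes on the arms, 3709 (26.6%) had a thresholded summit within 1000 bp of a TSS, 102 had a left-out one and 9 had both, which brings the genes with either to 3802 (27.2%). Among the 93, picked after their values were seen because they encode chromatin proteins, were Sirt6, Kdm2, Kdm3, mor, osa, corto, gpp and trx. Their strongest left-out signals within 1000 bp were 214, 169, 168, 136, 119, 112, 80.4 and 77.0 in that order. Picked in the same way for well known transcription factors and signalling proteins were kibra (165), Ras85D (147), nmo (144), cwo (132), puc (84.8), Med (70.0), Rel (67.0) and E2f1 (66.4), all values being signals. Of the 9 genes with both kinds of peak, larp had 811 left out and 203 thresholded, InR 218 and 141, Ubi-p63E 186 and 63.1, Pgk 196.7 and 290.1, and REPTOR 91.6 and 614.

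The left-out peaks came in runs. Joined across gaps of up to 10 kb they formed 113 stretches, 73 of a single peak and 40 of 2 or more, and these 40 held 143 members (66.2%). On the arms 74.0% of the 177 members and 76.4% of the 4899 thresholded peaks had a neighbour of their own kind at this distance. The thresholded peaks are far more numerous on the same arms and so lie closer together on average. Alike shares therefore do not mean alike clustering, and the degree of clustering was not compared. Inside the 40 stretches lay 278 ranked peaks, 143 of which passed the limit, and all 143 were left out. No peak of the larger thresholded list lay inside any of the 113 stretches. For the 73 of a single peak this follows from the absence of overlap given above. Of the conservative list 2 thresholded peaks lay inside a stretch, both between members at tara and at least 1705 bp from the nearest of them. The nearest thresholded peak lay 224 bp or more from each stretch on the arms, and within 10 kb of 43 of the 82. Of the 113 stretches 49 lay on 3R, spread from one end of the arm to the other, and 13 on 2L.

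The longest stretch was tara, with 14 members over 29545 bp (chr3R:16224423-16253967), signals of 56.4 to 475, and 2 members at promoters. The run around Rh5 held 10 members over 9499 bp (chr2L:12002947-12012445) with signals of 63.2 to 331. Its members lay on both sides of Rh5, and none had its summit in an annotated gene. Its strongest peak had 131 in replicate 1 and 197.7 in replicate 2. The stretch of ush and cbt held 6 members with signals of 101.2 to 1562, and Lk6 held 5 with signals of 57.2 to 1332. The second highest signals were 289 at tara, 159 around Rh5, 242 at ush with cbt and 118 at Lk6.

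In the remaining stretches of 3 or more on the arms the top signals were 80.4 to 316. The 6 members at chic (profilin), eIF4A (a translation initiation helicase) and ifc all lay at promoters and ran from 51.7 to 109.7. The 6 at ATPsynC (a subunit of the mitochondrial ATP synthase), CG12054 and CG15561 ran from 68.1 to 111, and the 6 at COX7AL2 and CG10874 from 49.0 to 103. Kdm2 with Nmdmc held 5 members (67.0 to 213), and Pgk with Bacc held 5 (11.6 to 196.7). With 4 members each stood Sin3A with Amph (top 310.5), the group of CG8176, Kdm3, Ras85D, Rlb1, mRpL47 and rump (top 168), spen (top 153) and mor with Hel89B (top 136). With 3 each stood crp (top 316), Unc-115a with dmt and trbd (top 279), InR (top 218), jumu (top 136), REPTOR with mld (top 91.6) and Dmtn with gpp (top 80.4).

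**Figure D5:**
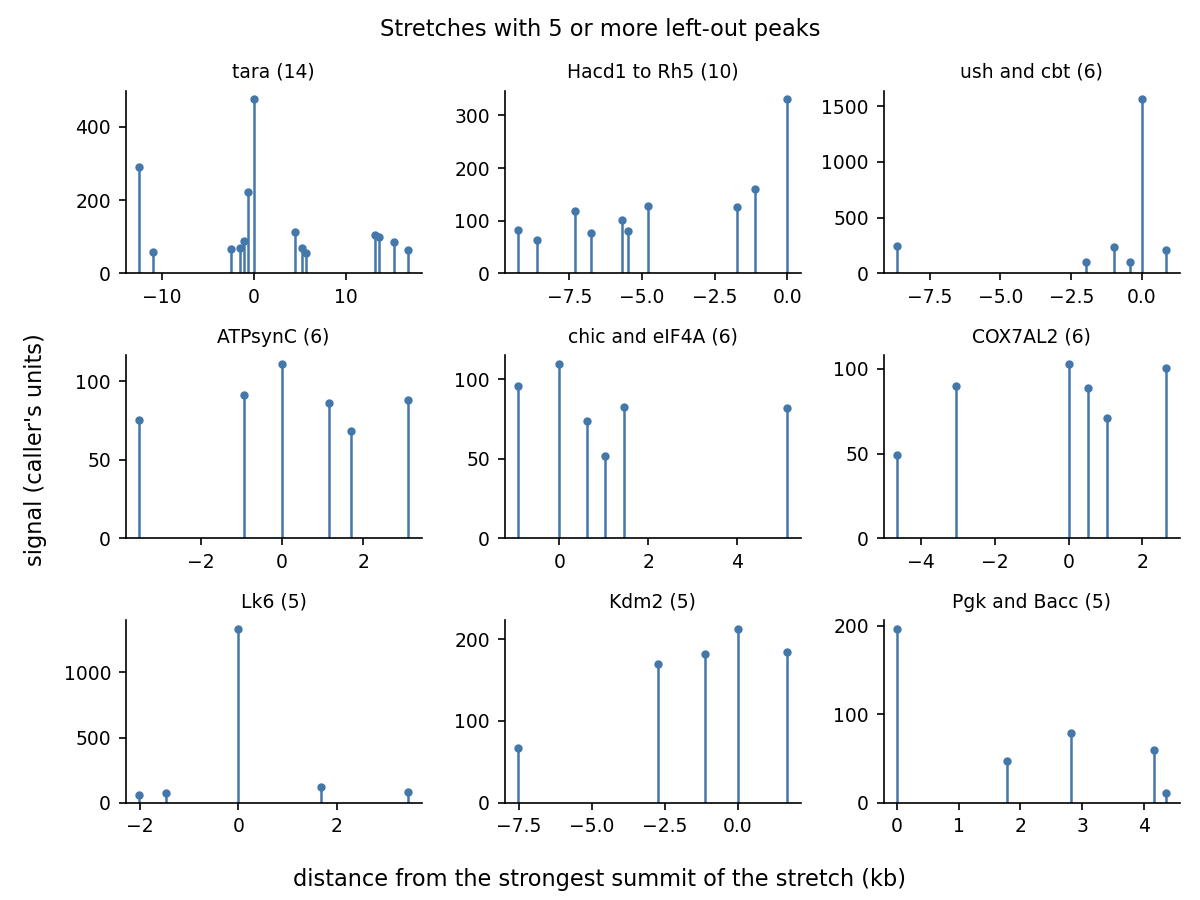
Signal of every left-out peak (caller's units, y axes from 0 and scaled per panel) against its distance from the strongest summit of its stretch (kb), for the 9 stretches with 5 or more members; the number of members stands after each name. At ush with cbt and at Lk6 a single summit stands out, with signals of 1562 and 1332, while the panels of ATPsynC, chic and COX7AL2 stay at or under 111.

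Lists of genes with many copies or strong transcription were looked up as well. For scale, 102 of all 13968 coding genes on the arms had a left-out summit within 1000 bp of a TSS. A thresholded summit lay there for 3709 (26.6%). The lists also count summits inside a gene, so these shares are only a rough scale. Of 116 histone genes in the annotation 3 had a left-out summit in them or within 1000 bp, from 2 peaks on 2L with signals of 198 (beside His2A:CG33865 and His2B:CG33868) and 101.1 (beside His2B:CG33908 and the pseudogene His-Psi:CR33805), and 2 had a thresholded peak. The 99 ribosomal RNA genes and the 40 Stellate genes annotated on the arms had none. Genes on the other contigs, where 39 members lie, were not looked up, so copies there are not covered by any of these counts. Of 86 cytoplasmic ribosomal protein genes 64 had a thresholded peak and only RpL13A a left-out one, whose peak also lies at snoRNA:Me28S-U2134a and snoRNA:Me28S-U2134b. Of 290 transfer RNA genes 3 had a left-out peak, the same one of signal 118 for all 3 glutamate genes and for snoRNA:185, and 32 had a thresholded peak. Of 260 microRNA genes mir-4949 had 2 left-out peaks, with a top of 111, and 24 had a thresholded peak. The NFAT gene had a thresholded peak and no left-out one.

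Of 25 heat shock genes 8 had a thresholded peak and Hsp70Ab a left-out one, with a signal of 66.0. Of all 13968 coding genes 3709 (26.6%) had a thresholded summit within 1000 bp and 102 a left-out one. Outside the fixed list, and named after their values were seen, 2 members lay in lncRNA:Hsromega, a non-coding RNA gene induced by heat, with signals of 99.6 and 89.1. Another member with a signal of 125 lay in lncRNA:alphagamma-element:CR32865, 9666 bp from Hsp70Ba.

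Motifs were searched on both strands within 50 bp of the summit. The NFAT core GGAAA occurred at 23.2% of members, 26.4% of thresholded and 27.5% of lower-ranked summits. ACACTG or ACAGTG, which can overlap as in the tara window, occurred at 15.8% of members, 18.5% of thresholded and 7.68% of lower-ranked summits. TATCGATA, the DNA replication-related element of fly promoters, occurred at 2.26%, 3.25% and 0.230%. GAGAG, the core bound by GAGA factor, occurred at 22.6% of members (Wilson interval 17.1 to 29.3) and at 14.1% of thresholded and 13.2% of lower-ranked summits. TATAAA occurred at 6.78% of members and 11.6% of thresholded peaks, and GGTCACACT and AGGTGGCGC at none of the 177 members and at 1.31% and 0.959% of thresholded peaks. TGGAAANNT, which holds the GGAAA core, occurred at 2.26% of members and 3.35% of thresholded peaks, CAGCTG at 7.91% and 6.35%, and 5 CA units in a row at 2.26% and 0.919%. The median GC content of the window was 46.5% for members, 43.6% for thresholded and 49.5% for lower-ranked peaks.

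Per the deposited file descriptions, the thresholded lists were derived from a further source file that the ranked lists do not name. Its content was not used here, and its part in leaving these peaks out was not tested.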

How the data were processed

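Per the labels, ChIP was made on 2 biological replicates, and the authors deposited peak lists on dm6 for each replicate and for both together. The signal in the deposited lists is the authors' caller's value per peak, and the lists also hold the −log10 of a q-value and, in ranked lists, the −log10 of the global IDR. Other deposited columns give the summit offset. Further deposited columns, used as a score, hold the signals of the matched peaks. For the aligner and the caller, nothing is given in the sources used here. The members and gene lists were chosen with earlier results of these data known.

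Left-out peaks were found by exact match of position, signal and summit. Stretches join peaks across gaps of up to 10 kb, and peaks of 2 lists overlap with 1 bp or more. Summits were annotated with Ensembl 115 (BDGP6.54), and the 50 bp at the summit were counted exactly on both strands of the RefSeq Release 6 genome. The 39 members off the arms could not be matched to names in the reference and stand as not annotated. Motifs were sought within 50 bp of the summit. Python 3.11.15, NumPy 2.4.6, pandas 2.3.3 and SciPy 1.17.1 were used. The left-out rule was tested on the ranked list itself with known lines taken out. Joining, copy counts and the search for a motif were tested on simulated data. The annotation and overlap steps had no such test. Intervals are 95% Wilson intervals.

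Named were the 25 strongest members, the stretches of 3 or more, the 15 strongest promoters, listed genes with a member and 3 peaks on each side of the limit. Others are marked in the text. Alternatives covered the IDR limit, the match, the list, each replicate, the promoter distance, the joining gap and the copy length. No test was run, since members share stretches and were chosen by their values.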

Additional observations from a re-analysis of the deposited data

How the results depend on the processing

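Of 62 values recomputed under other settings 45 stayed close to the reported value and 17 did not. The 45 include settings that left the same 216 members in place. These were matching by position alone, asking that no thresholded peak overlap, and merging lines with the same start and end. The repeated share on arms only also repeats the reported value by construction. The count of 45 therefore overstates how stable the results were. Some of the 17 moved by construction as well. The promoter share on arms only has the same 88 members over 177. The median signals of the conservative list and of each replicate come from separately made lists, whose signals are not on a shared scale. Close means within 1.5 times for counts and within the 95% interval of the reported value for shares and medians. With a −log10 global IDR of 3 or more there were 112 left-out peaks in 72 stretches with a median signal of 138, and at 2.5 the median was 111. The conservative pair of lists gave a median signal of 106. With one replicate alone the number of left-out peaks ran from 134 to 169, the share off the arms from 10.1% to 26.9%, the share at promoters from 31.3% to 44.4%, the share with a repeated summit from 3.29% to 6.12% and the median signal from 55.7 to 66.4. Of all 216 members 40.7% were at promoters with contigs counted as none. This became 33.8% within 250 bp, 48.1% within 1000 bp and 49.7% on arms only. With copies of 100 bp the repeated share was 0%, and with an IDR limit of 0.05 in each replicate 55.6% of members passed in both. Beyond what such construction shows, the causes were not tested.

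No paired analysis was possible because both replicates belong to 1 group and nothing was tested between groups. The lists give no read counts, so depth is unknown and no limit of detection can be given. Members were chosen by their values, neighbours share sequence, and replicates of 1 strain leave the spread between strains unmeasured.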
